A study of Arabidopsis thaliana with 17 samples.

Results

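The plasma membrane intrinsic proteins of the PIP2 group are aquaporins encoded in Arabidopsis thaliana by 8 genes, PIP2;1 (AT3G53420), PIP2;2 (AT2G37170), PIP2;3 (AT2G37180), PIP2;4 (AT5G60660), PIP2;5 (AT3G54820), PIP2;6 (AT2G39010), PIP2;7 (AT4G35100) and PIP2;8 (AT2G16850). They were taken by locus, whatever their values, and all 8 were among the 27655 genes of the deposited counts. PIP2 proteins form tetramers in the plasma membrane in which each subunit carries its own water pore, and they partner with PIP1 proteins, which often need them to reach the membrane. They carry much of the water that crosses root and leaf cell membranes, and several also pass hydrogen peroxide or other small solutes. Plants change their aquaporins under salt and drought at the level of the transcript, by phosphorylation that gates the pore, by internalisation from the membrane and by ubiquitin-dependent breakdown.

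Their transcripts were followed in seedlings of 3 lines, each grown in hydroponics to 14 days of age and sampled at 24 h and at 0 h of exposure to 200 mM NaCl. The first line was the mutant atdgcr14l-1, named for a lesion in AtDGCR14L, a gene that the study's title ties to pre-mRNA splicing and salt tolerance. OE-6 was the complementation line, in which AtDGCR14L was put back into that mutant under the 35S promoter, active in most cell types, and Col-0 was the wild type. There were 3 libraries in each group except Col-0 at 0 h, which had 2, giving 17 in all. No plants kept for 24 h without salt were analysed here, so salt and the passing of 24 h cannot be told apart, and "salt response" below means 24 h over 0 h.

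AtDGCR14L (AT3G07790) stood at 11.3 to 13.1 TMM-scaled CPM (counts relative to library size) in the mutant at 24 h and 6.76 to 8.52 CPM at 0 h, against 72.2 to 78.8 CPM in Col-0 at 24 h and 55.7 to 59.9 CPM at 0 h. In OE-6 it stood at 67.6 to 88.3 CPM at 24 h and 43.2 to 50.5 CPM at 0 h, below Col-0 at 0 h and overlapping it at 24 h. Library totals ran from 53058673 to 56464259 estimated counts, and the PIP2 genes held between 257 and 52722 estimated counts in a library, all well above the filter on low counts. The material was labelled as seedling, yet 6 of 8 root markers were under 1 CPM in every library, PLT1 was at 0 in all 17 and SKOR reached 1.16 CPM. Only SCR, also used by leaf tissue, was above that, at 20.3 to 30.4 CPM, while 6 leaf markers summed to 11648 to 30256 CPM. The libraries of OE-6 at 24 h were the least alike, with a mean correlation of 0.954 to 0.959 with the others of their group, against 0.975 to 0.989 in the other 5 groups. OE-6 24 h replicate 2 had the lowest value and gave 4 PIP2 genes well below those of its group, as described with each gene, and atdgcr14l-1 24 h replicate 3 the lowest of the mutant. Where either library changed a call, or moved a value printed below by over 1.5 times, the value without it is given too.

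PIP2;2 and PIP2;3 need to be read with care, since they are near copies. In the RefSeq annotation of TAIR10.1 they lie head to head on chromosome 2, the first at chr2:15613368-15615022 on the minus strand and the second at chr2:15617635-15619155 on the plus strand, with 2612 bases between their starts. The coding sequences, 858 bases each, differ at 45 positions (94.8% identity) and share an identical run of 242 bases. Of the 759 windows of 100 bases in the first, 143 also occur unchanged in the second, so reads from those windows could be counted to either gene. No other pair of the 8 shared such a window, and the next most alike were PIP2;1 with PIP2;2 (85.5%) and PIP2;7 with PIP2;8 (84.0%). The first 120 coding bases of both genes, counted from the start codon, show how the differences are spread, with the 12 differing positions in capitals.
PIP2;2: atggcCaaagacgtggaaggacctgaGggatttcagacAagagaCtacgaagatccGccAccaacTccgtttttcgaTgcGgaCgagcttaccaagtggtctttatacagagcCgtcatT
PIP2;3: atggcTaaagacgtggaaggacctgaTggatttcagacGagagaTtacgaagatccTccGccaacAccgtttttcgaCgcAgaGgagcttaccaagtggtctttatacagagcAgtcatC
Reads over this stretch can be told apart, and those over the identical run cannot, so the sum of both genes is also given beside the comparisons of either.

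To compare the genes with each other, levels were put per length, as TMM-scaled CPM per kilobase of the longest annotated transcript. PIP2;1, found in leaves and roots and a target of phosphorylation linked to drought and abscisic acid, led in every group on this scale. At 24 h it averaged 511 ± 80.2 CPM per kb in atdgcr14l-1, 352 ± 36.6 in OE-6 and 343 ± 46.8 in Col-0 (SD, n = 3 each). At 0 h it averaged 475 ± 18.4 in atdgcr14l-1, 444 ± 32.8 in OE-6 (SD, n = 3 each) and 468 ± 84.3 in Col-0 (SD, n = 2). The next place at 0 h was held by PIP2;7 in all 3 lines, with 386 to 431 CPM per kb, and its libraries overlapped those of the leading gene in OE-6 and Col-0 but not in the mutant. PIP2;6 (157 to 173 CPM per kb), PIP2;2 (51.3 to 52.7) and PIP2;8 (19.5 to 22.2) followed in that order, each apart from its neighbours. PIP2;3 and PIP2;5 lay together at 8.83 to 12.5 CPM per kb, with the first the higher in the mutant and Col-0 and both overlapping in OE-6. The lowest was PIP2;4, best known from roots, at 4.18 to 4.86 CPM per kb.

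At 24 h the order was different. PIP2;6 held the second place in all 3 lines with 264 to 282 CPM per kb, and PIP2;7 the third with 146 to 182. The first and second places overlapped in OE-6 and Col-0 but were apart in the mutant. PIP2;3 and PIP2;5 stood above PIP2;8 in all 3 lines at 24 h by their means, whereas both had stood below it at 0 h. In the mutant at 24 h the first of these (52.6 ± 3.75 CPM per kb) overlapped its near copy (53.5 ± 3.61), while in OE-6 (25.8 ± 7.63) and Col-0 (27.9 ± 2.45) it lay below every library of that copy (SD, n = 3 each). The genes in the last 2 places overlapped in every line. Over all libraries the genes at ranks 2 and 3 change places when levels are put per kilobase of coding sequence instead of transcript. That order therefore depends on the length used. The lead at 24 h also depended on the length scaling in Col-0 and OE-6. In CPM not put per length, PIP2;6 averaged 605 in Col-0 and 598 in OE-6, above PIP2;1 at 539 and 554. In the mutant PIP2;6 averaged 568 CPM, below PIP2;1 at 804 CPM.

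**Figure D1:**
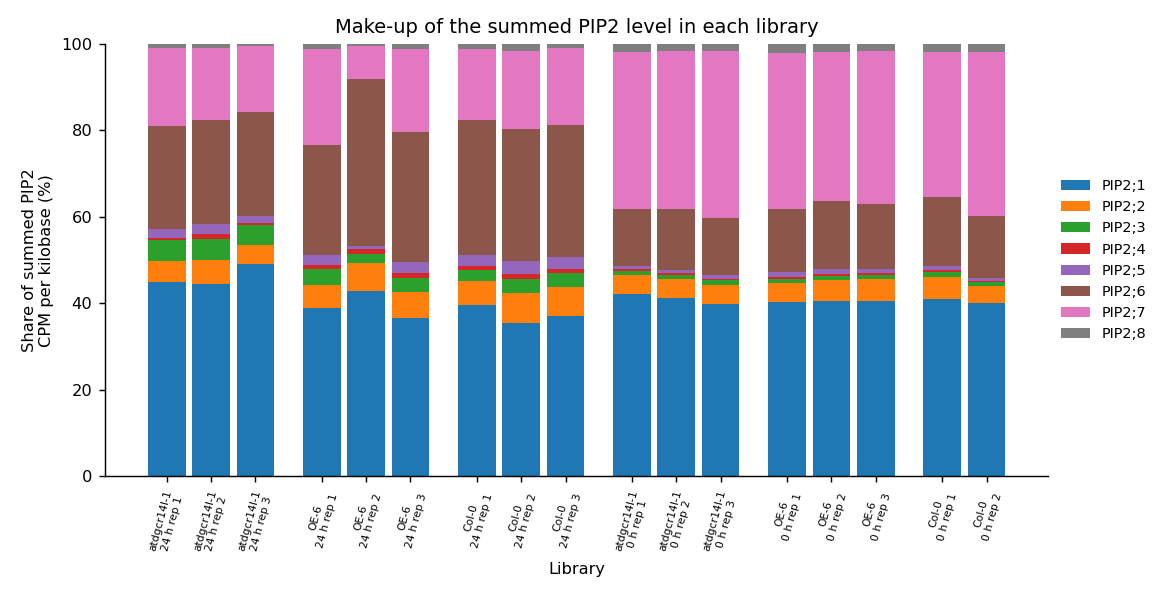
Share of the summed PIP2 level (TMM-scaled CPM per kb of transcript, in percent) that each gene makes up, 1 bar per library, with the libraries of 24 h on the left and those of 0 h on the right. At 24 h the second band from the top is narrower and the band under it wider, and the lowest band is tallest in the mutant at 24 h.

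Summed over the 8 genes, the level was 1102 ± 111 CPM per kb in the mutant at 24 h and 1159 ± 20.4 at 0 h (SD, n = 3 each). OE-6 had 891 ± 37.6 at 24 h and 1095 ± 84.3 at 0 h (SD, n = 3 each), and Col-0 had 915 ± 77.8 at 24 h (SD, n = 3), against 1156 ± 225 at 0 h (SD, n = 2). The sums of the mutant overlapped between the times, and those of OE-6 and Col-0 did not. The make-up of the sum differed more than its size, as the plot of shares by library shows. In Col-0 PIP2;6 made up 30.8% ± 0.383 of the sum at 24 h, against 15.1% ± 1.14 at 0 h, and PIP2;7 17.4% ± 0.875 against 35.7% ± 2.97. In the mutant the leading PIP2;1 made up 46.2% ± 2.49 at 24 h and 41.0% ± 1.16 at 0 h, while in OE-6 and Col-0 its mean lay between 37.4% and 40.5%.

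The salt response was tested in each line with edgeR's quasi-likelihood test over 21282 genes, with p adjusted over all of them by Benjamini and Hochberg's method and a gene called where this fell under 0.05. PIP2;3, PIP2;4 and PIP2;6 rose and PIP2;7 and PIP2;8 fell in all 3 lines. PIP2;5 rose in the mutant and Col-0, PIP2;1 fell in Col-0, and PIP2;2 was called in no line. In the mutant 4 of the 8 genes rose and 2 fell, where 58% of all genes tested were called (31.3% higher and 26.7% lower). In OE-6 3 rose and 2 fell, against 55.3% of all genes (29.5% higher and 25.7% lower). In Col-0 4 rose and 3 fell, against 46.8% of all genes (25.4% higher and 21.4% lower). With about 1 gene in 2 called everywhere, the number of PIP2 genes called says little about the group, and the members' directions and sizes are what the following values show. The median log2 change of the 8 genes was 0.43 in the mutant, 0.31 in OE-6 and 0.42 in Col-0, beside 0.03 over all genes tested in each line.

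**Figure D2:**
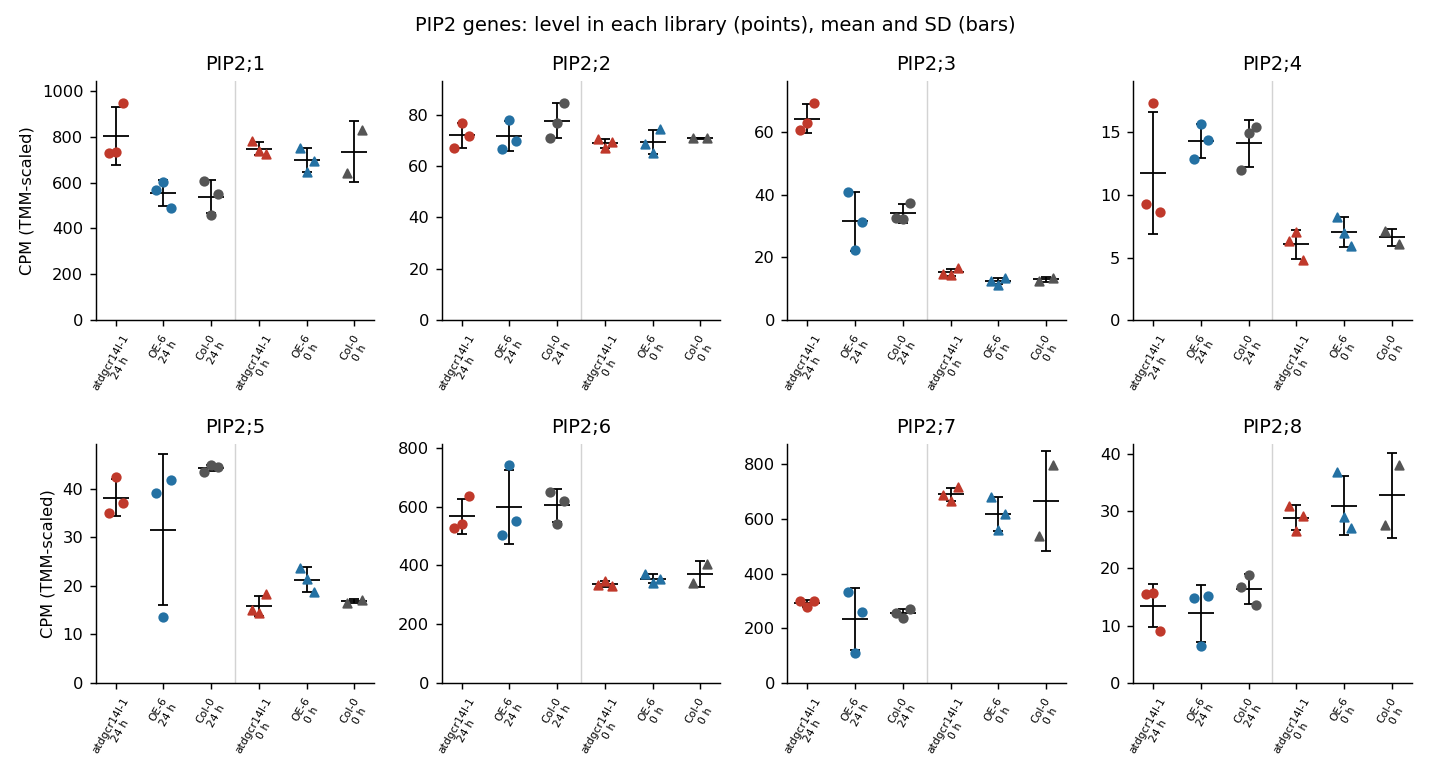
Level of each PIP2 gene (TMM-scaled CPM, axis from 0) in every library, with the mean and SD of each group, where circles are 24 h, triangles 0 h. In the third panel the mutant at 24 h lies above all other libraries, and in 3 panels of the lower row 1 OE-6 library at 24 h lies far below its group.

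PIP2;3, first described as the desiccation-responsive gene RD28, gave the largest log2 rise of the 8 genes for the mutant and for OE-6. It stood at 60.4, 62.7 and 69.3 CPM in the mutant at 24 h, against 14.5 to 16.6 CPM at 0 h. In OE-6 it stood at 40.8, 22.2 and 31.4 CPM at 24 h, against 11.3 to 13.3 CPM at 0 h. In Col-0 it stood at 32.4, 32.1 and 37.4 CPM at 24 h, against 12.5 and 13.5 CPM at 0 h. In each line all libraries at 24 h lay above all at 0 h, and the 22.2 CPM was that of OE-6 replicate 2. The mutant rose by 2.07 ± 0.16 on the log2 scale (adjusted p = 1.27e-07), OE-6 by 1.35 ± 0.16 (adjusted p = 7.53e-06) and Col-0 by 1.39 ± 0.19 (adjusted p = 3.4e-05, edgeR), where ± is the standard error, as in all log2 changes. The sum with its near copy also rose, for the mutant by 0.69 ± 0.08 (adjusted p = 4.1e-06), for OE-6 by 0.33 ± 0.08 (adjusted p = 0.00246) and for Col-0 by 0.41 ± 0.09 (adjusted p = 0.00168, edgeR). Without replicate 2 the OE-6 rise of the single gene was 1.55. Of all genes tested, ABS2 and TBL41 were most like it over the 17 libraries, both with a Pearson correlation of log2 CPM of 0.98, a description in which the libraries share lines and times.

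PIP2;2, which contributes to water uptake by roots, was close to level throughout. It lay between 66.8 and 84.7 CPM in the 9 libraries at 24 h and between 65.2 and 74.6 CPM in the 8 at 0 h. The times overlapped in all 3 lines, and the log2 change was 0.06 ± 0.09 in the mutant (95% interval -0.12 to 0.24), 0.04 ± 0.09 in OE-6 (-0.14 to 0.23) and 0.13 ± 0.10 in Col-0 (-0.07 to 0.33). Without OE-6 24 h replicate 2 the OE-6 value was -0.02. These intervals leave out changes of the size measured for its neighbour. The 250 bases before the annotated starts of both genes (RefSeq, TAIR10.1) are given here because these near copies differed in their salt response. The first is chr2:15615023-15615272 on the minus strand, the second is chr2:15617385-15617634 on the plus strand, and both run 5′ to 3′ towards the gene.
PIP2;2 upstream: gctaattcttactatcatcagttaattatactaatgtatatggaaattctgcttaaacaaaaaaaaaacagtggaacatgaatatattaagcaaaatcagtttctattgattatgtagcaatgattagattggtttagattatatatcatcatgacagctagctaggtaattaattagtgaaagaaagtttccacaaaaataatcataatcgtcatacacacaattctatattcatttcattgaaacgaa
PIP2;3 upstream: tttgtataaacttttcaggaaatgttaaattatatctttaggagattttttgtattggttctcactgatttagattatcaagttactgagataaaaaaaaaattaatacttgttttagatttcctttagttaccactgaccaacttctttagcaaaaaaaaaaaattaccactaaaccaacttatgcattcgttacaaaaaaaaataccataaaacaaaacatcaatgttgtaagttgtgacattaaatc
Neither window holds the core of the abscisic acid response element (ACGTG), the core of the dehydration response element (CCGAC) or a G-box (CACGTG, which itself holds ACGTG), searched on both strands, and there are therefore no capitals. Of 27443 windows of this length before annotated genes, 22.9% hold ACGTG, 11.97% hold CCGAC and 6.49% hold CACGTG. The genes nearest to PIP2;2 by correlation were AT3G03280 (0.75) and the outward potassium channel gene GORK (0.74), lower values than for the other members.

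PIP2;4, a gene of roots and root hairs that carries water and hydrogen peroxide, rose in all 3 lines and was the lowest of the group at 0 h in each of them. It stood at 9.28, 17.4 and 8.61 CPM in the mutant at 24 h against 4.78 to 7.01 CPM at 0 h, at 12.9, 15.7 and 14.4 CPM in OE-6 at 24 h against 5.92 to 8.28 CPM at 0 h, and at 11.997, 14.99 and 15.4 CPM in Col-0 at 24 h against 6.11 and 7.09 CPM at 0 h. The times were apart in each line, and mutant replicate 2 was the highest library of all. On the log2 scale the rise was 0.96 ± 0.23 for the mutant (adjusted p = 0.00273), 1.02 ± 0.23 for OE-6 (adjusted p = 0.00185) and 1.098 ± 0.27 for Col-0 (adjusted p = 0.00378, edgeR). Without replicate 2 of the mutant at 24 h its rise there was 0.56 (adjusted p = 0.0139, edgeR). The genes most like it over all libraries were PRR1 (0.98) and RNS3 (0.98).

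PIP2;5, known to be raised by drought and cold, rose in the mutant and in Col-0. It stood at 35.0, 42.3 and 37.0 CPM in the mutant at 24 h against 14.3 to 18.3 CPM at 0 h, and at 43.4, 44.8 and 44.5 CPM in Col-0 at 24 h against 16.5 and 17.04 CPM at 0 h. In OE-6 it stood at 39.1, 13.6 and 41.7 CPM at 24 h, against 18.7 to 23.7 CPM at 0 h. Replicate 2 of OE-6 at 24 h lay below all OE-6 libraries of 0 h while its 2 partners lay above them. The rise on the log2 scale came to 1.27 ± 0.29 for the mutant (adjusted p = 0.00166) and to 1.40 ± 0.33 for Col-0 (adjusted p = 0.00324, edgeR). In OE-6 it was 0.57 ± 0.28 (adjusted p = 0.102, 95% interval -0.04 to 1.17), and without OE-6 24 h replicate 2 it was 0.93 with adjusted p = 1.55e-05 in edgeR. It was the only 1 of the 8 genes with any of the searched motifs in the 250 bases before its start (chr3:20301509-20301758, plus strand, RefSeq, TAIR10.1), shown with that motif in capitals.
PIP2;5 upstream: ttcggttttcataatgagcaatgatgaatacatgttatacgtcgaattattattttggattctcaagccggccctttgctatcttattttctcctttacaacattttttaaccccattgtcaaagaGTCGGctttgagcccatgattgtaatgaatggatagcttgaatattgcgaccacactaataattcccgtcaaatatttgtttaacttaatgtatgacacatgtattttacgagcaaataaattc
The capitals are the dehydration response core on the opposite strand (GTCGG, the reverse complement of CCGAC), starting at position -124 relative to the annotated gene start. The other 3 genes that rose have none of these letters in their windows, nor have the genes that fell. Of the 27443 windows before annotated genes 11.97% hold this core, so 1 of 8 is near the share over all genes. The genes closest to it over all libraries were AT4G33130 (0.96) and AT3G12760 (0.96).

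PIP2;6, found in leaf veins and rosettes, rose by a like amount in all lines. It stood at 527, 540 and 636 CPM in the mutant at 24 h against 329 to 346 CPM at 0 h. In OE-6 it stood at 503, 741 and 550 CPM at 24 h against 339 to 371 CPM at 0 h, and in Col-0 at 652, 543 and 621 CPM at 24 h against 341 and 404 CPM at 0 h. Every library at 24 h lay above every library at 0 h, in all lines, and the highest was OE-6 replicate 2. Its log2 rise was 0.75 ± 0.14 for the mutant (adjusted p = 0.000238), 0.75 ± 0.14 for OE-6 (adjusted p = 0.000275) and 0.70 ± 0.15 for Col-0 (adjusted p = 0.00175, edgeR). In CPM this was the largest gain of the 8 genes in all 3 lines, since the gene was already abundant. Its pattern over all libraries was most like those of the dehydrin gene ERD14 (0.98) and of AT4G12000 (0.98).

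PIP2;7, which was once named the salt stress-inducible major intrinsic protein, fell in all 3 lines. It stood at 298, 277 and 300 CPM in the mutant at 24 h, against 667 to 716 CPM at 0 h. In OE-6 it stood at 332, 109 and 260 CPM at 24 h, against 558 to 682 CPM at 0 h, and in Col-0 at 256, 239 and 270 CPM at 24 h, against 537 and 796 CPM at 0 h. All libraries at 24 h lay below all at 0 h, and OE-6 replicate 2 was again far below its partners. The log2 fold change was -1.24 ± 0.28 for the mutant (adjusted p = 0.00141), -1.41 ± 0.28 for OE-6 (adjusted p = 0.000633) and -1.39 ± 0.30 for Col-0 (adjusted p = 0.0017, edgeR). Without OE-6 24 h replicate 2 the OE-6 value was -1.06. In these mixed tissues fewer cells of a type and less RNA per cell cannot be told apart. The summed level of the 6 leaf markers moved with this gene, at 14117 to 18149 CPM in the mutant at 24 h against 26310 to 27591 CPM at 0 h, 11648 to 16116 CPM in OE-6 at 24 h against 26512 to 30256 CPM at 0 h, and 13788 to 15943 CPM in Col-0 at 24 h against 24462 to 28078 CPM at 0 h. Of these 6 markers 4 fell in the mutant, 6 in OE-6 and 5 in Col-0, none rose, and their part in the result was not tested. The highest correlations with it were those of AT2G10940 (0.99) and GRH1 (0.99).

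PIP2;8, whose coding sequence is the nearest to that of the gene just described, fell with it at a far lower level. It stood at 15.6, 15.7 and 9.11 CPM in the mutant at 24 h against 26.6 to 30.9 CPM at 0 h, at 14.9, 6.42 and 15.2 CPM in OE-6 at 24 h against 27.1 to 36.8 CPM at 0 h, and at 16.8, 18.8 and 13.6 CPM in Col-0 at 24 h against 27.5 and 38.0 CPM at 0 h. The times were apart in each line, with the lowest values in mutant replicate 3 and OE-6 replicate 2. The fold change on the log2 scale was -1.102 ± 0.28 for the mutant (adjusted p = 0.00418), -1.35 ± 0.29 for OE-6 (adjusted p = 0.00118) and -0.998 ± 0.31 for Col-0 (adjusted p = 0.0163, edgeR). For Col-0 it was no longer called when replicate 2 of Col-0 at 0 h (-0.75, adjusted p = 0.157) or replicate 3 of Col-0 at 24 h (-0.88, adjusted p = 0.0576) was left out. The OE-6 value was -1.04 without OE-6 24 h replicate 2, and that of the mutant -0.89 without its replicate 3 at 24 h. Most like it were ENODL13 (0.98) and AT4G38660 (0.98).

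PIP2;1 was called in Col-0 and in neither of the other lines. In the mutant it stood at 728, 733 and 949 CPM at 24 h against 726 to 781 CPM at 0 h. It stood at 568, 603 and 491 CPM in OE-6 at 24 h against 647 to 750 CPM at 0 h, and at 606, 460 and 552 CPM in Col-0 at 24 h against 642 and 830 CPM at 0 h. In Col-0 and OE-6 the libraries at 24 h lay below those at 0 h, while in the mutant they overlapped. Its log2 fold change was 0.10 ± 0.14 for the mutant (adjusted p = 0.55), -0.33 ± 0.14 for OE-6 (adjusted p = 0.0555) and -0.45 ± 0.15 for Col-0 (adjusted p = 0.0273, edgeR). The mutant value was -0.03 without replicate 3 of the mutant at 24 h. The fall in Col-0 was not called once replicate 2 of Col-0 at 0 h (-0.25, adjusted p = 0.328) or replicate 2 of Col-0 at 24 h (-0.35, adjusted p = 0.105) was left out. The OE-6 change was called by DESeq2 (-0.35, adjusted p = 0.0315) and without OE-6 24 h replicate 2 (-0.40, adjusted p = 0.0389, edgeR). It was called too without replicate 3 of the mutant or replicate 1 or 2 of Col-0 at 24 h, with the filter at 5 CPM and without organelle genes (adjusted p = 0.0325 to 0.0485, edgeR). AT5G14120 (0.91) and ARGOS (0.90) were most like it over all libraries.

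**Figure D3:**
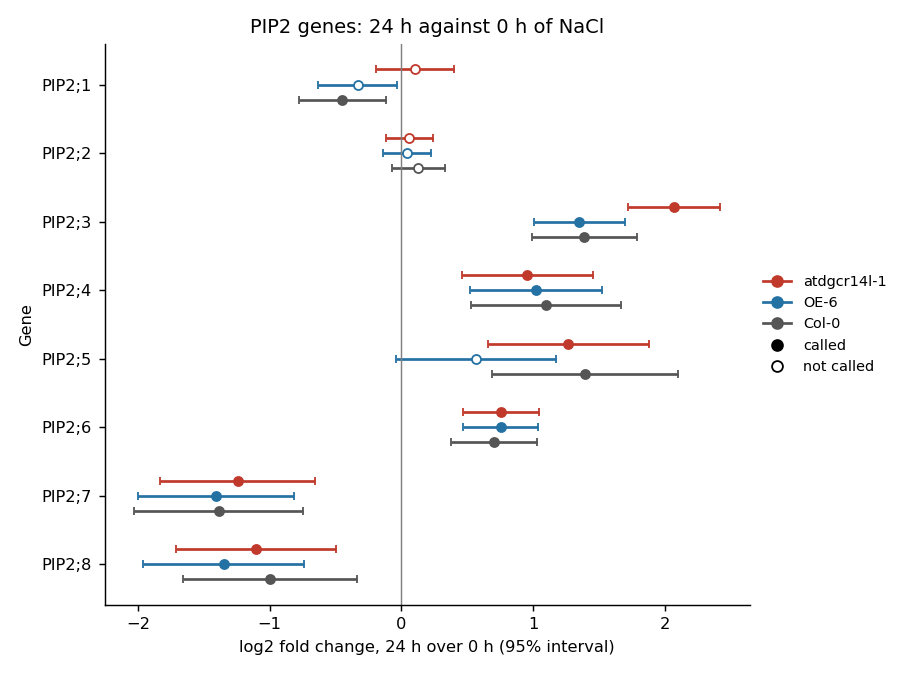
Log2 fold change of each PIP2 gene, 24 h over 0 h, in atdgcr14l-1, OE-6 and Col-0, with 95% intervals from edgeR and filled points for called changes. The bottom pair lies left of 0 and 3 genes lie right of 0 with called points in all 3 lines, and PIP2;2 sits at 0.

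The lines were compared at each time to see which of these levels differed between them. At 24 h PIP2;1 and PIP2;3 were higher in the mutant than in Col-0 and lower in OE-6 than in the mutant, and the other 6 genes were called in neither comparison. In the mutant against Col-0, 2 of 8 genes were higher and 0 lower, where 12.4% of all genes were called (7.71% higher and 4.67% lower). In OE-6 against the mutant, 0 were higher and 2 lower, where 12% were called (5.17% higher and 6.79% lower). Both comparisons use the same 3 mutant libraries, so their opposite signs are not independent of each other.

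The 3 mutant libraries at 24 h had 60.4 to 69.3 CPM of PIP2;3 and lay above all those of OE-6 (22.2 to 40.8 CPM) and of Col-0 (32.1 to 37.4 CPM). The log2 difference was 0.92 ± 0.16 for the mutant over Col-0 (adjusted p = 0.00278) and -1.03 ± 0.16 for OE-6 over the mutant (adjusted p = 0.0017, edgeR). The first was called with every library left out in turn, and the second was not called in a fit of those 2 groups alone (-1.001, adjusted p = 0.181). That fit called 7 of 20384 genes, against 12% of all genes in the fit of all groups. Its near copy stood at 67.2 to 76.9 CPM in the mutant, 66.8 to 78.1 CPM in OE-6 and 71.1 to 84.7 CPM in Col-0, all overlapping. The salt-raised gene thus made up 47.1% ± 2.1 of the counts of the pair in the mutant at 24 h, 30.3% ± 7.91 in OE-6 and 30.5% ± 0.954 in Col-0 (SD, n = 3 each), against 18.1% ± 1.06 in the mutant, 15.1% ± 0.272 in OE-6 (SD, n = 3 each) and 15.4% ± 0.76 in Col-0 (SD, n = 2) at 0 h. The sum of the pair was 128 to 141 CPM in the mutant, 100 to 108 CPM in OE-6 and 103 to 122 CPM in Col-0 at 24 h. It differed by 0.29 ± 0.08 for the mutant over Col-0 (adjusted p = 0.0311) and by -0.40 ± 0.08 for OE-6 over the mutant (adjusted p = 0.00673, edgeR). The first of these was not called when any of 5 libraries was left out, with adjusted p = 0.0502 to 0.187 in edgeR and the lowest value, 0.19, without replicate 1 of Col-0 at 24 h. It was also lost with no low-count filter, with a filter at 5 CPM, without organelle genes and in a fit of those groups alone (adjusted p = 0.0714, 0.0525, 0.0589 and 0.148, edgeR), and the second was lost in the fit of its groups alone (-0.37, adjusted p = 0.269).

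For PIP2;1 the mutant libraries at 24 h (728 to 949 CPM) lay above those of OE-6 (491 to 603 CPM) and of Col-0 (460 to 606 CPM), and replicate 3 of the mutant was the highest. The log2 difference was 0.58 ± 0.14 for the mutant over Col-0 (adjusted p = 0.0175) and -0.54 ± 0.14 for OE-6 over the mutant (adjusted p = 0.0248, edgeR). Without mutant 24 h replicate 3 the differences were 0.44 (adjusted p = 0.075) and -0.40 (adjusted p = 0.0977), and neither was called in edgeR. The first was lost also when replicate 2 of Col-0 at 24 h was left out (0.47, adjusted p = 0.0849). The second was lost also without OE-6 24 h replicate 3 (-0.46, adjusted p = 0.0775). Dropping mutant replicate 3 along with OE-6 replicate 2, both of 24 h, lost the second as well (-0.46, adjusted p = 0.0686, edgeR). In fits of only the groups compared neither was called (0.58, adjusted p = 0.0853, and -0.51, adjusted p = 0.316, edgeR). For the remaining genes the log2 difference of the mutant over Col-0 at 24 h lay between -0.28 ± 0.28 (PIP2;8) and 0.19 ± 0.27 (PIP2;7), and the intervals were wide, at -0.89 to 0.32 and -0.39 to 0.78. The lower of these was -0.07 without replicate 3 of the mutant at 24 h. PIP2;4 was the exception that turned on 1 library, with adjusted p = 0.0233 (-0.66) for the mutant over Col-0 and 0.0206 (0.68) for OE-6 over the mutant once mutant 24 h replicate 2 was left out. Among the markers, 1 of 6 leaf markers (LHCB1.1) and 1 of 4 guard cell markers (KAT1) were also higher in the mutant than in Col-0 at 24 h, where 7.71% of all genes were. The other guard cell markers had lower means in the mutant, with MYB60 at 9.50 against 12.04 CPM, FAMA at 30.2 against 32.1 and HT1 at 4.77 against 5.85. The median log2 difference was -0.001 for the leaf list and -0.19 for the guard cell list. The part of the markers in the result was not tested.

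**Figure D4:**
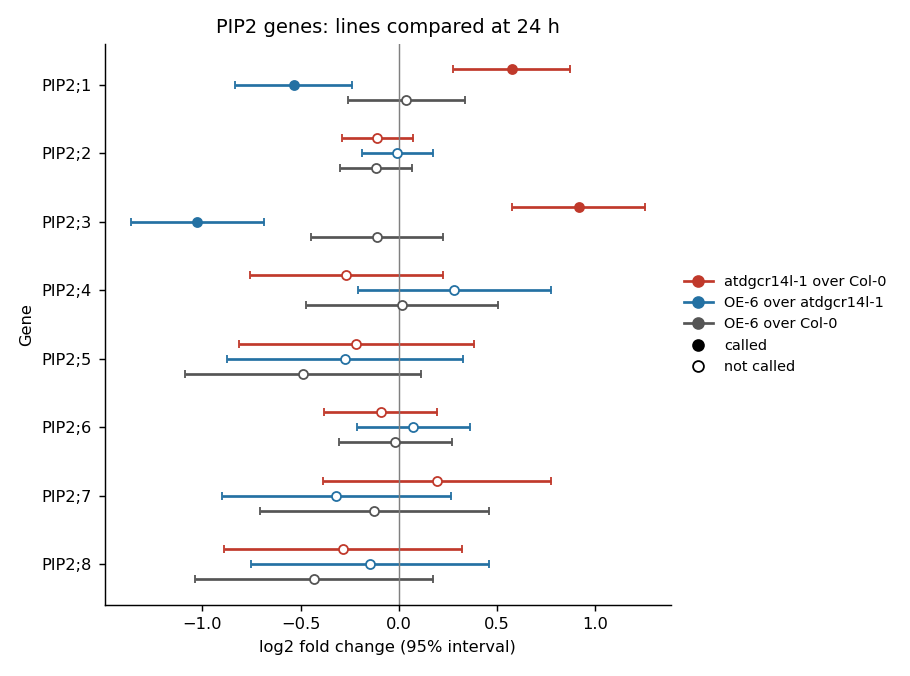
Log2 fold change of each PIP2 gene between lines at 24 h, for atdgcr14l-1 over Col-0, OE-6 over atdgcr14l-1 and OE-6 over Col-0, with 95% intervals from edgeR and filled points for called changes. The first and the third gene are filled, on opposite sides of 0, in the comparisons that hold the mutant and are not filled in OE-6 over Col-0.

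At 0 h no PIP2 gene was called in the mutant against Col-0 (2.03% of all genes were, 1.45% higher and 0.573% lower), in OE-6 against the mutant (4.57%, with 1.48% higher and 3.09% lower) or in OE-6 against Col-0 (0.0141%, with 0.0047% higher and 0.0094% lower). In all 3 comparisons 0 of 8 genes had an unadjusted p under 0.05 in edgeR and 0 were called by DESeq2. A fit of only the groups compared did call 2 of them in OE-6 against the mutant. These were PIP2;3, lower (-0.31, adjusted p = 0.0341), and PIP2;5, higher (0.42, adjusted p = 0.0245, edgeR). That fit called 3185 of 19966 genes. PIP2;3 was at 14.5, 14.7 and 16.6 CPM in the mutant, 11.3 to 13.3 CPM in OE-6 and 12.5 and 13.5 CPM in Col-0, so the mutant libraries lay above the rest here too. The sum with its near copy did not show this, at 81.5 to 85.9 CPM in the mutant, 76.5 to 87.9 CPM in OE-6 and 83.5 to 84.3 CPM in Col-0, all overlapping. For the sum the log2 difference of the mutant over Col-0 was 0.01 ± 0.09 (95% interval -0.18 to 0.19). For the single gene it was 0.23 ± 0.18 (95% interval -0.15 to 0.62), an interval that overlaps the one at 24 h (0.58 to 1.25). In PIP2;5 all 3 OE-6 libraries (18.7 to 23.7 CPM) lay above the mutant (14.3 to 18.3 CPM) and Col-0 (16.5 and 17.04 CPM), with a log2 difference of 0.43 ± 0.28 over the mutant (adjusted p = 0.522, edgeR). Without OE-6 24 h replicate 2, which stood apart in this gene at 24 h, that difference was called (0.43, adjusted p = 0.0271).

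No PIP2 gene was called between OE-6 and Col-0 at 24 h, where 1 gene of all tested was (0.0047%, higher in OE-6). At an unadjusted p under 0.05 there were 0 of 8 in edgeR, and DESeq2 called 0. The log2 difference of OE-6 over Col-0 was 0.04 ± 0.14 for PIP2;1 (95% interval -0.26 to 0.34) and -0.11 ± 0.16 for PIP2;3 (-0.45 to 0.23). For PIP2;5 it was -0.49 ± 0.28 (-1.09 to 0.11) and for PIP2;8 -0.43 ± 0.28 (-1.04 to 0.18), 2 genes in which OE-6 replicate 2 was low. Without that library the 4 differences were -0.03, 0.09, -0.13 and -0.13, in the same order. The sum of the near copies differed by -0.11 ± 0.08 (-0.28 to 0.05).

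Whether the salt response itself differed between lines was tested as an interaction, which asks more of the data than either comparison alone. No PIP2 gene was called for the mutant minus Col-0 (0.0047% of all genes were), OE-6 minus the mutant (0.0094%) or OE-6 minus Col-0 (0%). For the mutant minus Col-0, 2 of 8 had an unadjusted p under 0.05 in edgeR and 0 were called by DESeq2. These were PIP2;3 (0.68 ± 0.24, 95% interval 0.17 to 1.19, adjusted p = 0.456) and PIP2;1 (0.55 ± 0.21, 0.11 to 1.00, adjusted p = 0.492). For OE-6 minus the mutant the same genes were under 0.05 unadjusted and 0 were called by DESeq2, with -0.72 ± 0.23 for the first (adjusted p = 0.317) and -0.44 ± 0.20 for the second (adjusted p = 0.498). With 1 library left out at a time the first of these ran from -0.95 to -0.52. It was called only without OE-6 24 h replicate 1 (-0.95, adjusted p = 0.0437, edgeR). For the sum of the near copies these differences were 0.28 ± 0.12 for the mutant minus Col-0 (adjusted p = 0.516) and -0.36 ± 0.11 for OE-6 minus the mutant (adjusted p = 0.316, edgeR). For OE-6 minus Col-0, 0 of 8 had an unadjusted p under 0.05 and 0 were called by DESeq2. A larger salt response of either gene in the mutant was therefore not called, although their levels at 24 h were higher there.

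Some pairs of members varied together and others ran opposite, here as a description over the 17 libraries, which share lines and times. PIP2;7 and PIP2;8 had a Pearson correlation of log2 CPM of 0.92, the highest of the 28 pairs, and PIP2;4 and PIP2;6 of 0.83. Against PIP2;6 both of the first pair ran opposite, at -0.92 and -0.89. The near copies were at 0.29. For comparison, the genes named above as most like each member reached 0.74 to 0.99, chosen among all 21282 genes tested.

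The other aquaporin families give the setting for these values. The PIP1 genes, whose products assemble with PIP2, had 1 of 5 that rose and 2 that fell in the mutant. In both OE-6 and Col-0 0 of them rose and 3 fell. PIP1;3 fell by 1.08 ± 0.11 in the mutant, 1.03 ± 0.11 in OE-6 and 1.18 ± 0.12 in Col-0 on the log2 scale. Of 5 tested tonoplast (TIP) genes 1 rose and 3 fell in the mutant, while 0 rose and 4 fell in OE-6 and 0 rose and 3 fell in Col-0. Of 7 tested NIP genes 1 rose and 1 fell in the mutant and likewise in Col-0, while 2 rose and 0 fell in OE-6. Of 3 SIP genes 3, 2 and 2 rose in the mutant, OE-6 and Col-0 and 0 fell in any. These counts are to be read against 31.3% of all genes called higher and 26.7% lower in the mutant. In OE-6 these shares were 29.5% and 25.7%, and for Col-0 they were 25.4% and 21.4%. The median log2 change of the PIP1 list was -0.21 in the mutant, -0.38 in OE-6 and -0.38 in Col-0, beside medians above 0 for the PIP2 genes. The mean summed CPM was lower at 24 h than at 0 h for both groups. For PIP1 it was 1937 against 2263 in the mutant, 1655 against 2129 in OE-6 and 1621 against 2275 in Col-0. For PIP2 it was 1863 against 1910, 1547 against 1813 and 1586 against 1915. The times overlapped in the mutant for both sums and in Col-0 for the PIP2 sum. Between lines at 24 h 1 of 5 PIP1 and 1 of 7 NIP genes were higher in the mutant than in Col-0, where 7.71% of all genes were. The same NIP gene was lower in OE-6 than in the mutant, where 6.79% of all genes were. No other PIP1, TIP, NIP or SIP gene was called in either comparison. No difference between the families was tested.

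Genes whose products are known to act on PIP2 proteins, by phosphorylation, traffic to the membrane or ubiquitin-dependent breakdown, formed a list of 14, all tested. Of these 8 rose and 2 fell in the mutant, while 6 rose and 3 fell in both OE-6 and Col-0, read against the shares of all genes called given above. OST1, the abscisic-acid-activated kinase that phosphorylates PIP2;1, rose by 1.06 ± 0.11 in the mutant, 1.16 ± 0.11 in OE-6 and 0.93 ± 0.12 in Col-0 on the log2 scale (adjusted p = 1.27e-06, 7.3e-07 and 2.96e-05, edgeR). UBC32, a ubiquitin-conjugating enzyme of the endoplasmic reticulum that acts on PIP2;1, rose by 0.82 ± 0.09 in the mutant, 1.00 ± 0.09 in OE-6 and 0.74 ± 0.10 in Col-0 (adjusted p = 2.35e-06, 5.14e-07 and 3.89e-05, edgeR). Between lines at 24 h the same list had 1 of 14 higher and 0 lower in the mutant than in Col-0, and 0 higher and 1 lower in OE-6 than in the mutant. Of all genes 7.71% were higher and 4.67% lower in the first comparison and 5.17% higher and 6.79% lower in the second, so these counts are near the background.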

How the data were processed

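Per the labels, total RNA was prepared with a Spectrum Plant Total RNA kit, poly(A) selected and sequenced as strand-specific dUTP libraries on DNBSEQ. The authors deposited 1 set of estimated counts (expected counts) per library, with 1 whole number per gene. Per the submitters' processing notes, the tools included StringTie 2.1.7, Bowtie2 2.4.5 and DESeq2 2.11.40.7, in roles not recorded there. For the build and the strand counted, the answer is not given in the sources used here. The counts were fitted in R 4.3.3 with edgeR 4.0.16 (filterByExpr, 21282 genes kept, all 8 PIP2 genes among them, TMM factors 0.933 to 1.11, robust quasi-likelihood test over 6 groups, Benjamini-Hochberg over all genes), and levels are TMM-scaled CPM. The same steps were tested on simulated data. DESeq2 1.42.0 was an alternative, and the others are named with their results in the closing section. Replicates are the labels' numbered samples, not stated to be separate plants or cultures, so each p measures the spread between these samples, which may be technical. Gene positions, lengths and sequences come from RefSeq's TAIR10.1 annotation, and the 250-base windows end at the base before the annotated gene start. All 8 PIP2 genes are reported, with up to 2 genes per list by smallest p among those called in Col-0 and the 2 most alike genes per member. Of these the NIP, SIP and TIP genes are given as counts. The members, lists and alternatives were chosen with earlier results of these data known.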

Additional observations from a re-analysis of the deposited data

How the results depend on the processing

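No direction of a called PIP2 value was reversed under any alternative. Over the 8 genes and 12 contrasts, 756 values kept their side of the threshold, 8 gained a call and 4 lost one under a filter at a mean of 5 CPM, no low-count filter, RLE scaling, organelle genes left out, a fit of only the groups compared, DESeq2, the replicate block, and atdgcr14l-1 24 h replicate 3 with OE-6 24 h replicate 2 left out. With 1 library left out at a time 1615 were kept, 9 gained and 8 lost, and a Col-0 0 h group left with 1 library was assumed to vary like the other groups.

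Same-numbered libraries of different groups gave correlations of deviations of -0.162 to 0.324 (40 pairs, median 0.0005, 4 pairs over 0.1). Between 0 h and 24 h they were 0.324, 0.151 and 0.077 for OE-6 replicates 1, 2 and 3. Differently numbered OE-6 libraries gave -0.230 to 0.113. The same-numbered values were -0.067, 0.072 and 0.017 in the mutant and -0.011 and 0.072 in Col-0. Deviations within groups of 2 or 3 libraries sum to 0, so these values cannot settle whether the numbers pair the samples. The fit with the replicate number as a block kept 4 higher and 3 lower PIP2 genes for salt in Col-0, and it changed no other PIP2 call or count.

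The summed pair PIP2;2 and PIP2;3 in atdgcr14l-1 against Col-0 at 24 h was 0.24 with no filter (adjusted p = 0.0714), 0.24 with the 5 CPM filter (adjusted p = 0.0525), 0.24 without organelle genes (adjusted p = 0.0589), 0.26 without the 2 libraries (adjusted p = 0.0625) and 0.29 in a fit of only those groups (adjusted p = 0.148, edgeR), none past the threshold, and 0.19 to 0.36 with 1 library left out, where 5 of the omissions lost the call (adjusted p = 0.0502 to 0.187). For OE-6 against atdgcr14l-1 at 24 h it was -0.37 in the fit of only those groups (adjusted p = 0.269). That fit counted 1 higher PIP2 gene for atdgcr14l-1 against Col-0 at 24 h, 0 lower for OE-6 against atdgcr14l-1 at 24 h, and 1 higher (PIP2;5, adjusted p = 0.0245) and 1 lower (PIP2;3, adjusted p = 0.0341) for OE-6 against atdgcr14l-1 at 0 h. Without the 2 libraries OE-6 against atdgcr14l-1 had 1 higher at 0 h and 1 lower at 24 h. The cause was not tested.

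With 1 library left out, lower PIP2 genes numbered 1 to 3 for salt in Col-0. For atdgcr14l-1 against Col-0 at 24 h there were 1 to 2 higher and 0 to 1 lower. For OE-6 against atdgcr14l-1 there were 0 to 1 higher at 0 h, and 0 to 1 higher and 1 to 2 lower at 24 h. For the salt response of OE-6 minus atdgcr14l-1 there were 0 to 1 lower. Per kilobase of coding sequence PIP2;6 had rank 2 and PIP2;7 rank 3 over all libraries, against 3 and 2 per kilobase of transcript. Each PIP2 gene had at least 257 estimated counts in every library, and how far depth limits the comparisons was not tested.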
